A study of Mus musculus with 2 samples.

Results

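The genes described here build and run the lysosome and the autophagy pathway that feeds it. They are 36 mouse genes in 3 roles: 13 of the vacuolar ATPase (V-ATPase), 12 of lysosomal enzymes and membrane proteins, and 11 of autophagy, with the transcription factor gene Tfeb counted among the last. A gene was taken as measured from the probes whose RefSeq accession maps to its symbol. All 36 were on the array, with 44 probes, among 20618 named genes. On both arrays 35 of them gave signal well above background, while Npc1 did so in SoNar-high cells only. The samples were B-ALL cells, an acute leukaemia of B-lineage precursors, from bone marrow of C57BL mice of 8 weeks, sorted into SoNar-high and SoNar-low cells by the sensor's fluorescence ratio. SoNar is a genetically encoded sensor of the cytosolic NADH to NAD+ ratio. Each group had 1 single-colour (Cy3) array of total RNA, so no test was made, no difference has a replicate check, and precision is limited by this number of arrays. The sample titles read N-myc-high and N-myc-low, and the sources used here give neither how the leukaemia was made nor how many mice gave cells.

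Lysosomes are acidic organelles in which proteins, lipids and sugars are broken down. The V-ATPase uses ATP to pump protons into them, through a cytosolic V1 sector that hydrolyses ATP and a membrane V0 sector that carries the protons. In autophagy, a double membrane closes around cytoplasm and delivers it to the lysosome, and small ubiquitin-like ATG8 proteins such as LC3B are attached to that membrane. TFEB and its relatives of the MiT/TFE family bind E-box elements in the promoters of many lysosomal and autophagy genes. In B cells the lysosomal proteases also process antigen for presentation.

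The E-box is a feature that many of these promoters share and that played no part in choosing the genes. Promoter windows, from 250 bases before to 50 bases after an annotated start, were taken from RefSeq (GRCm38.p6) and matched 29 of the 36 genes by symbol. Atp6v1b2, Atp6v1c1, Atp6v1h, Ctsb, Npc1, Becn1 and Atg12 had no entry. The 6-base palindrome CACGTG, which reads the same on both strands, was found in a window of 10 of the 29 genes (34.5%), against 12.3% of the 8478 genes of the table that were measured on both arrays and 8.09% of all 27025 genes. These were Atp6v0b, Atp6v0d1, Atp6v0e and Atp6v1a of the pump, Lamp1, Ctsa and Ctsd of the lysosome, and Atg3, Atg5 and Atg7 of autophagy. The 8-base palindrome TCACGTGA, which contains CACGTG and so overlaps it, was found in 6 of the 29 (20.7%), against 2.37% of measured genes. At least 2 copies of CACGTG stood in 5 of the 29 (17.2%), against 1.51% of measured genes. Lamp1, which encodes an abundant glycoprotein of the lysosomal membrane, had 4 copies, whose first bases lay 61, 45, 28 and 15 bases before the start. Only 5 of the 8478 measured genes had 4 or more. None of the copies of Lamp1 lay within TCACGTGA. A match of letters is a description and does not show that a factor binds there. The 250 bases before the start are printed for the 4 genes with at least 2 copies wholly upstream, and for Map1lc3b, the gene with the lowest difference below, whose window held no copy. The sequences run 5′ to 3′ on the strand of the gene, with each CACGTG in capitals. They lie at chr8:13158911-13159160 on the plus strand for Lamp1, chr7:142387828-142388077 on the minus strand for Ctsd, chr4:117887330-117887579 on the minus strand for Atp6v0b, chr16:45158579-45158828 on the plus strand for Atg3 and chr8:121590188-121590437 on the plus strand for Map1lc3b.
Lamp1: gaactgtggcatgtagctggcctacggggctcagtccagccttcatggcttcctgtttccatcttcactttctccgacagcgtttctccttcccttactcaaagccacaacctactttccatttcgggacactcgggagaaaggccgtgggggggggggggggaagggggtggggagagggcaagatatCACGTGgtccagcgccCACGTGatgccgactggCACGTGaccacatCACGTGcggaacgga
Ctsd: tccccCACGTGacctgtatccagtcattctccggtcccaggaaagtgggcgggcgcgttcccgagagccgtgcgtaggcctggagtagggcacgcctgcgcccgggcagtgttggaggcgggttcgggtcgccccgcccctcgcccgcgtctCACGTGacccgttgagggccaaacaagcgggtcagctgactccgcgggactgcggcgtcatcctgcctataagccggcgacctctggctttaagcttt
Atp6v0b: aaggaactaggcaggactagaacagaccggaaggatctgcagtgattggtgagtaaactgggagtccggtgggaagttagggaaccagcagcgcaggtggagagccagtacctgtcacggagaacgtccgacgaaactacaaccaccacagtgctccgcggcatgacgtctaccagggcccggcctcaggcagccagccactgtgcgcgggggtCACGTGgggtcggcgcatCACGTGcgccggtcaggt
Atg3: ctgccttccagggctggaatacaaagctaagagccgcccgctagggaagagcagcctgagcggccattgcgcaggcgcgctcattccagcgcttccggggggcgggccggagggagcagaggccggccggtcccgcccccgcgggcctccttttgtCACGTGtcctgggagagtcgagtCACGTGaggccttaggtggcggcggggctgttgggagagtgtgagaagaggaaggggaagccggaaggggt
Map1lc3b: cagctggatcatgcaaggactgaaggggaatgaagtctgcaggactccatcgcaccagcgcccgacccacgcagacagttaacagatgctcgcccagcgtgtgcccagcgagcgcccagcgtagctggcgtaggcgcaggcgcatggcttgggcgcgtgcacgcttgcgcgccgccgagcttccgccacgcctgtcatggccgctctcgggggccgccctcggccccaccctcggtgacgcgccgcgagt
Whether carrying the element goes with a difference between the arrays was not tested, and only medians are given. The members without a promoter entry, among them Atp6v1b2, the gene with the highest difference below, are in neither group. The median log2 difference (SoNar-high minus SoNar-low, defined in the next paragraph) was 0.00016 over the 10 members with a copy and -0.25 over the 19 without. Over all measured genes of the table the order was the other way round, with -0.21 for the 1047 genes with a copy and -0.16 for the 7431 without.

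**Figure D1:**
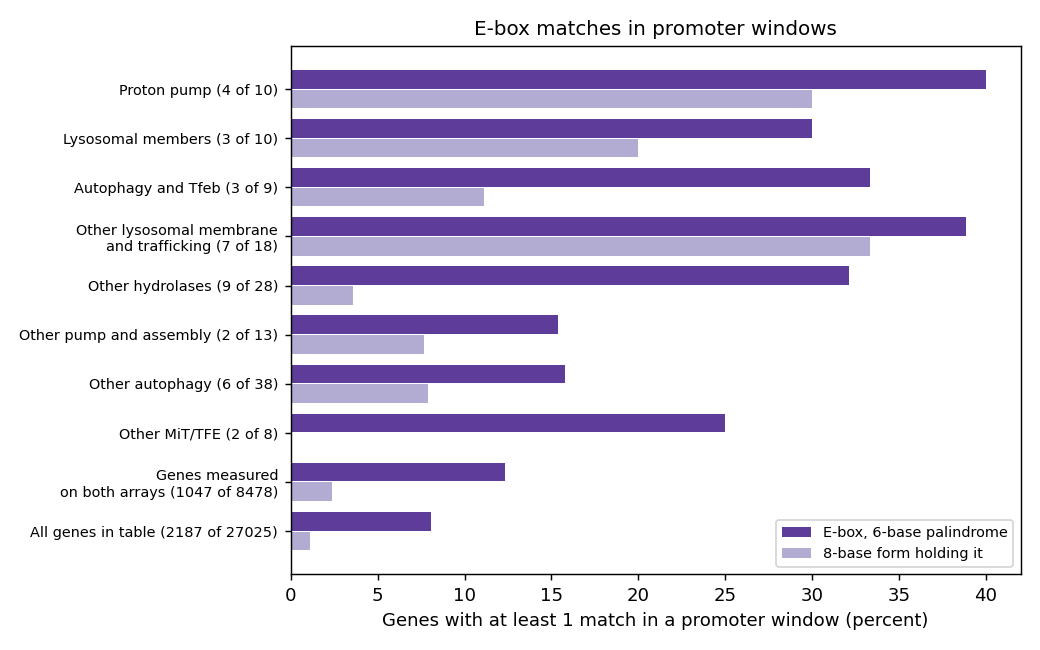
Share of genes, in percent, with at least 1 match to the 6-base E-box palindrome (dark bars) or to the 8-base form that contains it (light bars) in a RefSeq promoter window, by gene list. The counts beside each name are for the 6-base form. The 3 groups of members (the top 3 rows) all lie above the 12.3% seen over genes that both arrays measured. So do the related lists of genes that are not members. These run from 15.4% for other pump and assembly genes to 38.9% for other lysosomal membrane and trafficking genes.

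No member differed 2-fold between SoNar-high and SoNar-low cells. Levels are log2 of the processed signal minus the array's 75th percentile, which was a signal of 525 for SoNar-high and 475 for SoNar-low cells, and a gene's value is the mean over its probes that were well above background on both. With that scaling 0 of the 35 members were at least 2-fold higher, where 4.87% of all 10517 measured genes were, and 0 were at least 2-fold lower, where 1.68% of all genes were. The share of higher genes was smaller among bright genes, where most members lay. Shares by level are given with the level bins below. Their log2 differences ran from -0.84 for Map1lc3b to 0.73 for Atp6v1b2. The median was -0.20, beside -0.17 over all measured genes, and 17 members lay above the all-gene median and 18 below it. The calls depend on the scaling. With each array scaled to its median instead, which lowers every log2 difference by the same amount and moves the all-gene median by -0.61, 13 of the 35 (37.1%) were at least 2-fold lower, beside 31.4% of all genes. In that setting 0 members reached 2-fold higher, beside 1.32% of all genes. In the other 12 alternatives no member reached 2-fold in either direction. Differences are therefore also given against the all-gene median. In all 11 settings that do more than shift every gene alike, the main one among them, 7 members lay above that median, namely Atp6v0b, Atp6v0c, Atp6v1b2, Atp6ap1, Npc2, Tfeb and Atg3. In the same 11 settings 15 lay below it, namely Atp6v0e, Atp6v1c1, Atp6v1d, Atp6v1e1, Atp6v1f, Atp6ap2, Lamp1, Lamp2, Ctsc, Ctss, Psap, Becn1, Atg5, Atg12 and Map1lc3b. The other 13 changed side in at least 1 setting.

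The share of all genes at least 2-fold higher in those 12 alternatives, where the members' share was 0, was 3.66% after quantile normalization, 4.41% after cyclic loess, 2.49% after normexp background correction, 3.4% in the authors' value table and 7.06% after centring on the all-gene median. It was 7.66% with the percentile taken over commonly detected spots, 5.09% with the brightest probe of each gene and 5.14% with outlier spots kept. Across the filters on dim probes it was 13.5% without one, 20% with detection on 1 array enough, 3.62% with a stricter one and 4.95% with a common limit. The share at least 2-fold lower was 3.33% after quantile normalization, 2.85% after cyclic loess, 0.571% after normexp, 4.09% in the authors' value table and 0.666% after centring. It was 0.637% with the percentile over commonly detected spots, 2.02% with the brightest probe and 1.71% with outlier spots kept. Across the filters it was 8.49% without one, 1.09% with detection on 1 array enough, 1.36% with the stricter one and 1.1% with the common limit.

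**Figure D2:**
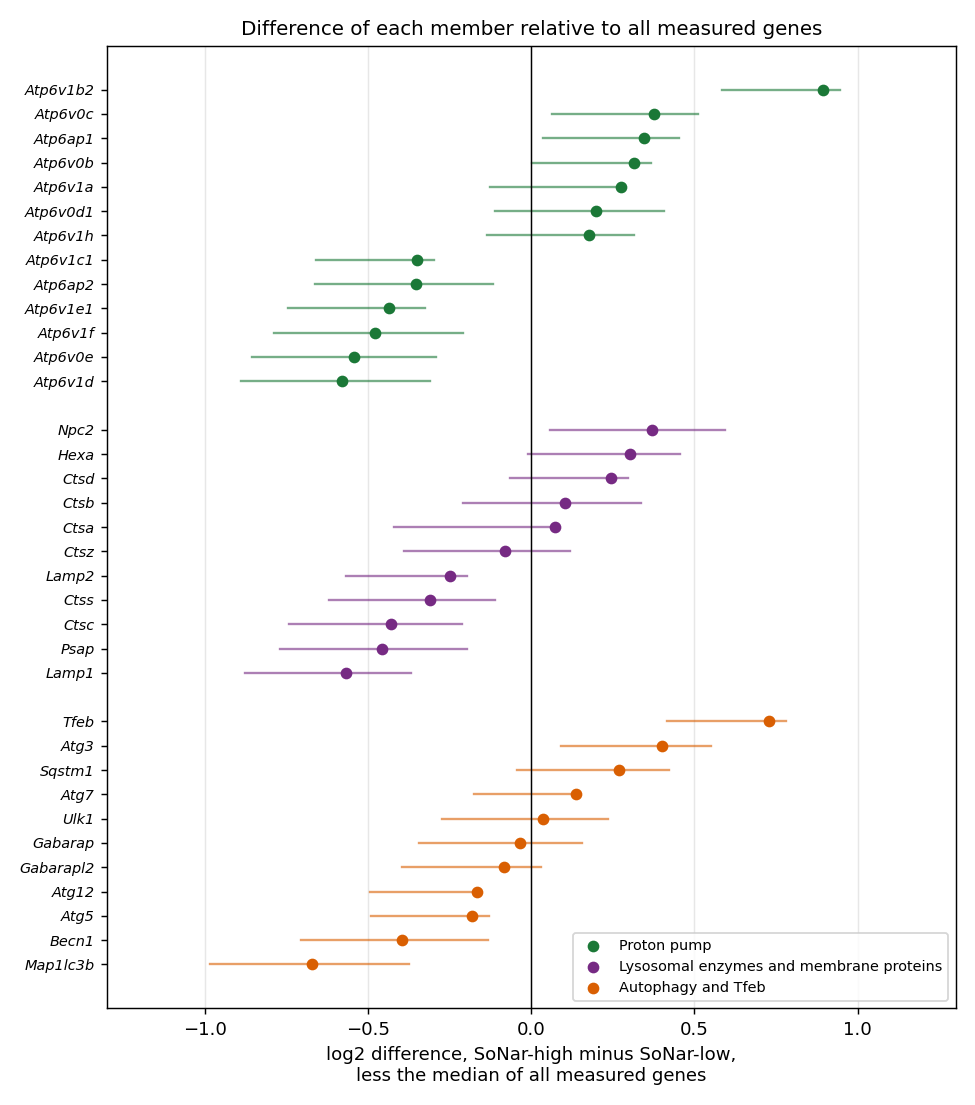
SoNar-high minus SoNar-low log2 difference for each of the 35 measured members, less the median of all measured genes, by role. Points are the main setting and lines span the 11 settings that do more than shift all genes alike. Atp6v1b2 and Tfeb lie farthest to the right and Map1lc3b, Atp6v1d and Lamp1 farthest to the left.

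The arrays themselves differed in what they could detect. In SoNar-high cells 72.9% of 43020 spots other than controls passed the background limit, against 44.8% in SoNar-low cells, and 0 were saturated. The dimmest spot that passed had a signal of 19.7 in SoNar-high and 46.4 in SoNar-low cells. The arrays came from separate scan sessions, so scan and group cannot be told apart. Among B cell markers 9 of 12 were measured and their log2 differences ran from -0.92 for Ebf1 to 0.27 for Ptprc. Igll1, Rag1 and Rag2, genes of early B cell stages, passed the background limit on neither array. Vpreb1, also a gene of early stages, passed on both, with 128 in SoNar-high and 118 in SoNar-low cells (-0.027).

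The V-ATPase genes lay on both sides of the all-gene median, in both sectors of the pump. All 13 were measured, 7 above and 6 below that median, with a list median of 0.0090. In the V0 sector, Atp6v0c, the proteolipid of the proton-carrying ring, had a signal of 889 in SoNar-high and 695 in SoNar-low cells, a log2 difference of 0.21. Atp6v0b, a second proteolipid of the ring, had 219 in SoNar-high and 179 in SoNar-low cells (0.15), and Atp6v0d1, which links the ring to V1, 1643 in SoNar-high and 1453 in SoNar-low cells (0.031). The small subunit gene Atp6v0e stood apart from these, with 1272 in SoNar-high and 1883 in SoNar-low cells and a difference of -0.71. The sign of Atp6v0b depended on the setting, with -0.11 after quantile normalization and -0.13 in the authors' value table.

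In the V1 sector 3 genes lay above 0 and 4 below it in the main setting. Atp6v1b2, the B subunit isoform found in most tissues, had a signal of 391 in SoNar-high and 213 in SoNar-low cells, a log2 difference of 0.73, and was the highest member in all 14 settings, the main one included. The catalytic A subunit gene Atp6v1a gave 0.11 as the mean of probes that pointed in opposite directions: one had 149 in SoNar-high and 91.3 in SoNar-low cells (0.56), the other 343 in SoNar-high and 393 in SoNar-low cells (-0.34), which was the value of the gene with the brightest probe alone or with the stricter filter. Atp6v1a also lay below 0 after quantile normalization (-0.14), cyclic loess (-0.036) and normexp (-0.12), and in the authors' value table (-0.13). Atp6v1h, a regulatory subunit, had 869 in SoNar-high and 781 in SoNar-low cells (0.0090), and was at -0.12 with normexp. The remaining 4 lay below 0. Atp6v1d, a subunit of the central rotor, had 1668 in SoNar-high and 2532 in SoNar-low cells, a log2 difference of -0.75, and Atp6v1f, another, had 3837 in SoNar-high and 5425 in SoNar-low cells, one of -0.64. Atp6v1e1, of the peripheral stalk, had 551 in SoNar-high and 757 in SoNar-low cells (-0.60). For Atp6v1c1, whose product bridges stalk and membrane sector, the signals were 383 in SoNar-high and 495 in SoNar-low cells (-0.52). The gap between Atp6v1b2 and Atp6v1d, which no common shift of an array can change, was 1.48 on the log2 scale and ranged from 1.07 to 1.48 over the 14 settings. The V0 median of the members exceeded their V1 median by 0.61, with 4 and 7 genes, and by 0.44 to 0.61 over the settings. This gap depends on which subunits are members. Measured subunits outside the members were Atp6v0a1 (0.059), Atp6v0a2 (-0.046) and Tcirg1 (-0.21) of V0 and Atp6v1g1 (-0.010) of V1. All of them lay between the V0 median of 0.089 and the V1 median of -0.52.

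The accessory proteins of the pump also differed in sign. Atp6ap1, needed for assembly, was higher by both of its probes, with 619 in SoNar-high and 472 in SoNar-low cells (0.25) for one and 887 in SoNar-high and 742 in SoNar-low cells (0.11) for the other. Atp6ap2, also known as the prorenin receptor, had 1352 in SoNar-high and 1752 in SoNar-low cells (-0.52).

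**Figure D3:**
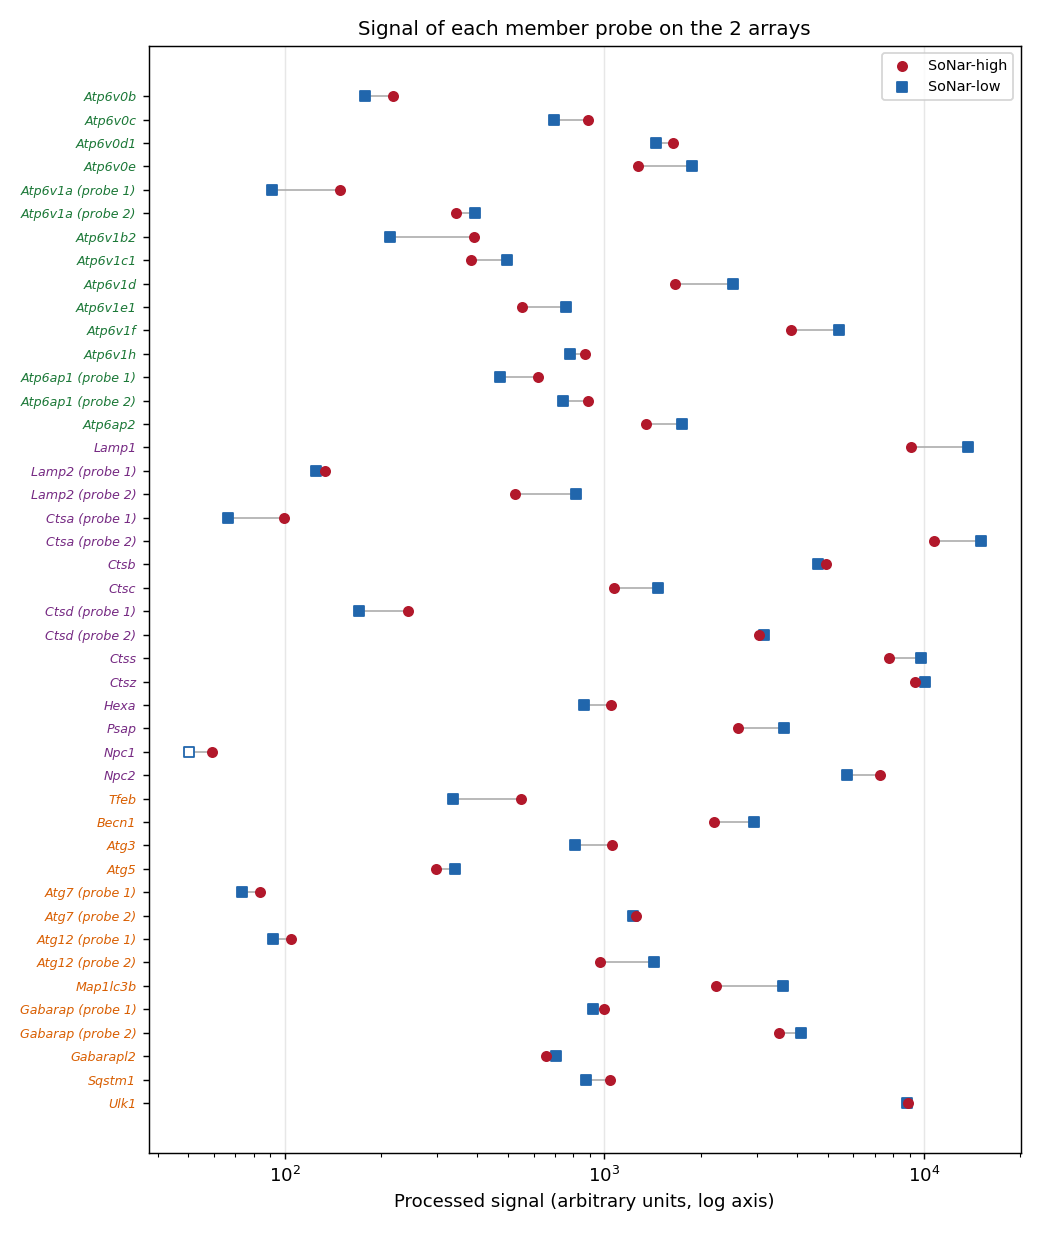
Processed signal (arbitrary units, log axis) of the 44 member probes, red circles for the SoNar-high and blue squares for the SoNar-low array, before scaling between arrays. Names are green for the pump, purple for lysosomal enzymes and membrane proteins and orange for autophagy, probe 1 is the dimmer of 2 probes, and the open square marks Npc1, not well above background in SoNar-low cells. Most pairs lie close together, and Map1lc3b, Lamp1 and Atp6v1d are among the wider gaps with SoNar-low above.

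Other pump genes, from a list that adds the remaining subunits and the assembly factors, gave 7 measured genes of 18 and no 2-fold difference. Their median was -0.046, beside -0.17 over all measured genes. Atp6v0a1, an isoform of the large V0 subunit, was the highest at 0.059, with signals of 99.7 in SoNar-high and 86.5 in SoNar-low cells. Ccdc115, an assembly factor, was the lowest at -0.89, with 2421 in SoNar-high and 4057 in SoNar-low cells.

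Among the lysosomal proteins, the membrane glycoproteins and the saposin precursor were on the lower side and the proteases were spread around the all-gene median. Of 11 measured genes 5 lay above and 6 below that median, and the list median was -0.25. Lamp1 had 9129 in SoNar-high and 13734 in SoNar-low cells, a log2 difference of -0.73 and the lowest of the group. Lamp2, whose product also takes part in chaperone-mediated autophagy, had probes to different RefSeq transcripts, one with 526 in SoNar-high and 818 in SoNar-low cells (-0.78), the other with 133 in SoNar-high and 125 in SoNar-low cells (-0.053). Psap, the precursor of the saposins that help degrade sphingolipids, had 2615 in SoNar-high and 3649 in SoNar-low cells (-0.63).

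The 6 cathepsin genes had differences from -0.60 to 0.078. Ctsc, which activates granule serine proteases, was the lowest, with 1073 in SoNar-high and 1468 in SoNar-low cells. Ctss, the cathepsin that cleaves the invariant chain of MHC class II, followed with 7750.4 in SoNar-high and 9756 in SoNar-low cells (-0.48). Ctsz, a carboxypeptidase, had 9344 in SoNar-high and 10029 in SoNar-low cells (-0.25), and Ctsb 4924 in SoNar-high and 4656 in SoNar-low cells (-0.064). The aspartic protease gene Ctsd had a mean of 0.078 over probes of opposite sign, with 243 in SoNar-high and 171 in SoNar-low cells (0.36) for one and 3039 in SoNar-high and 3161 in SoNar-low cells (-0.20) for the other. Ctsa, which also stabilises other lysosomal enzymes, had a mean of -0.094 and the widest disagreement. Its probes gave 99.8 in SoNar-high and 66.3 in SoNar-low cells (0.45) and 10720.2 in SoNar-high and 15049 in SoNar-low cells (-0.63).

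Of the remaining members of this role, Npc2 and Hexa lay above the all-gene median and Npc1 was near the limit of detection. Npc2, a soluble cholesterol carrier, had 7291 in SoNar-high and 5733 in SoNar-low cells, a log2 difference of 0.20, the highest of the group. Its membrane partner Npc1 had 59.3 in SoNar-high cells and 50.04 in SoNar-low cells, where it was not well above background. The bound for Npc1 was 1.07-fold higher in SoNar-high cells with the main scaling, from 1 spot on each array. This bound is close to no difference and does not settle a direction. Hexa, the alpha subunit of beta-hexosaminidase, had 1050.1 in SoNar-high and 865 in SoNar-low cells (0.14).

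Of 37 other hydrolases 34 were measured, 0 differed 2-fold in either direction, and their median was -0.20. Galns, a sulphatase, was the highest at 0.76, with 1042 in SoNar-high and 557 in SoNar-low cells. Of 22 other membrane and trafficking proteins 19 were measured, with a median of -0.020, above the all-gene median, and 1 was at least 2-fold higher, where 4.87% of all measured genes were. That gene was Cln3, a lysosomal membrane protein mutated in a childhood storage disease, with a mean log2 difference of 1.22. Its used probes had 584 in SoNar-high and 165 in SoNar-low cells (1.68) and 456 in SoNar-high and 241 in SoNar-low cells (0.77), and its remaining probe was not used, since it was not well above background on either array. Ctns, the cystine exporter, was the lowest at -0.73, with 474 in SoNar-high and 713 in SoNar-low cells.

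Lysosomal genes are active in myeloid cells too, and most measured monocyte, macrophage and neutrophil markers were higher on the SoNar-high array. Of 14 monocyte and macrophage markers 6 were measured, with a median of 0.88, and 2 were at least 2-fold higher, Csf1r at 1.25 and C1qb at 1.15, where 4.87% of all measured genes were, while Mrc1 was the lowest at -0.56. Their summed signal, in units of each array's 75th percentile, was 4.13 in SoNar-high and 2.06 in SoNar-low cells. Itgam supplied most of that sum on both arrays. It had the largest signal of these markers, with 2714 in SoNar-high and 945 in SoNar-low cells for one used probe. The other used probe of Itgam had 104 in SoNar-high and 78.8 in SoNar-low cells. A further 6 of the 13 on the array were detected in SoNar-high cells alone, as 26.5% of all named genes were, among them Lyz2 with 88.1 in SoNar-high and 12.1 in SoNar-low cells, and Ccr2 was not well above background on either array. Of 13 neutrophil markers 11 were measured, from -0.32 for Prtn3 to 1.29 for Ngp, with a median of 0.70 and a summed signal of 48.0 in SoNar-high and 38.3 in SoNar-low cells. S100a9 had the largest signal of these on both arrays and was close to the all-gene median, with 8479 in SoNar-high and 8533 in SoNar-low cells (-0.15). Of 10 markers of T and natural killer cells 5 were measured, from 0.99 for Nkg7 to 1.72 for Cd4, with a median of 1.22 and a summed signal of 4.95 in SoNar-high and 2.07 in SoNar-low cells. Of 7 dendritic cell markers Siglech was at 0.96 and Ccr7 at -0.37, and of 8 erythroid markers Hba-a1 was at 1.88. The value of Siglech came from 1 probe. Its other probe, with 9.36 in SoNar-high and 11.9 in SoNar-low cells, was under the detection limit of both arrays. The 11 measured lysosomal members had a summed signal of 96.3 in SoNar-high and 125 in SoNar-low cells. The part of these cell types in the lysosomal values was not tested, and in RNA from a cell population fewer cells of a type and less RNA per cell cannot be told apart.

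The autophagy genes held both the lowest member of all and, in Tfeb, the second highest. All 11 were measured, 5 above and 6 below the all-gene median, with a list median of -0.20. Map1lc3b, which encodes the ATG8 protein LC3B, was spotted 10 times on each array. Its signals were 2106 at the lowest, 2250.5 at the median and 2374 at the highest in SoNar-high cells, against 3351, 3639 and 4048 in SoNar-low cells, so the spots of the arrays did not overlap. The log2 difference was -0.84 ± 0.079 (SD over the 8 spots kept, all of 1 probe on 1 array per group), and it was -0.84 ± 0.077 with all 10 spots. Over 193 repeated probes the median of that SD was 0.15. This spread is that of the spots and holds no variation between samples. Map1lc3b was the lowest member in 11 of the 14 settings and Lamp1 in the other 3.

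The other ATG8 members, Gabarap and Gabarapl2, were closer to the all-gene median than Map1lc3b. Of the ATG8 genes outside the members, Gabarapl1 was farther below it than Map1lc3b and Map1lc3a was above it. Gabarap, which acts late in autophagosome formation, had a mean of -0.20, with 998 in SoNar-high and 919 in SoNar-low cells (-0.025) for one probe and 3511 in SoNar-high and 4122 in SoNar-low cells (-0.38) for the other. Gabarapl2 had 657 in SoNar-high and 707 in SoNar-low cells (-0.25). Map1lc3b lay below Gabarap by -0.64 on the log2 scale, and by -0.64 to -0.46 over the settings. Of the ATG8 genes that are not members, Gabarapl1 was the lowest of the other autophagy genes at -0.97, with 607 in SoNar-high and 1074 in SoNar-low cells, and Map1lc3a was at 0.34, with 217 in SoNar-high and 154 in SoNar-low cells.

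The proteins that attach ATG8 to the membrane gave small differences. Atg3, the E2-like enzyme that passes ATG8 to lipid and whose promoter is printed above, had 1054 in SoNar-high and 811 in SoNar-low cells, a log2 difference of 0.23. Atg7, the E1-like enzyme, had a mean of -0.031, with probes at 83.9 in SoNar-high and 73.5 in SoNar-low cells (0.045) and at 1259 in SoNar-high and 1226 in SoNar-low cells (-0.11). Atg5 had 297 in SoNar-high and 342 in SoNar-low cells (-0.35). Its conjugation partner Atg12 had a mean of -0.33, close to that of Atg5, over probes with 105 in SoNar-high and 92.0 in SoNar-low cells (0.041) and 969 in SoNar-high and 1433 in SoNar-low cells (-0.71). Of the genes that start autophagy, Ulk1, the initiating kinase, had 8908 in SoNar-high and 8819 in SoNar-low cells (-0.13), and Becn1, a subunit of the lipid kinase complex that marks the membrane, 2202 in SoNar-high and 2940.2 in SoNar-low cells (-0.56). Sqstm1, the p62 cargo receptor, which is itself degraded by autophagy, had 1038 in SoNar-high and 875 in SoNar-low cells (0.10).

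Tfeb, the transcription factor of the group, had 549 in SoNar-high and 337 in SoNar-low cells, a log2 difference of 0.56 from 1 probe. Its relative Tfe3 had a used probe of the opposite sign, with 115 in SoNar-high and 201 in SoNar-low cells (-0.95). The probe of Tfe3 that was left out, not well above background on the SoNar-low array, pointed the other way, with 124 in SoNar-high and 51.5 in SoNar-low cells. With the filter on dim probes relaxed to detection on at least 1 array, the gap between Tfeb and Tfe3 went to 0.48 on the log2 scale, beside 1.51 in the main setting. Of 8 other MiT/TFE factors and regulators 4 were measured, all below 0, with a median of -0.50 and Fnip1, a partner of folliculin, the highest at -0.14. Mitf was detected in SoNar-high cells alone, at a level under the SoNar-low array's limit, and Tfec on neither array. Of 48 other autophagy genes 42 were measured, 0 differed 2-fold in either direction, and their median was -0.13. Atg9a, the lipid scramblase that seeds the membrane, was the highest at 0.75, with 195 in SoNar-high and 105 in SoNar-low cells.

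Brighter genes had lower differences on these arrays. Over the members the correlation had the same sign, but their medians did not fall steadily with level. Across genes, the log2 difference and the mean level correlated with Pearson r = -0.40 over the 35 members and r = -0.26 over all 10517 genes, a description in which all genes share the same 2 arrays. Genes were divided by mean level into 4 bins of equal size. In the brightest bin the median difference was -0.34 over 2629 genes and -0.56 over the 11 members in it. In the next bin it was -0.26 over 2629 genes and 0.0090 over 15 members. The second bin from below, with 8 members, gave -0.083 for all genes and -0.18 for the members, and the dimmest bin held 1 member, Atp6v0b. The share of all genes at least 2-fold higher fell with level. From the dimmest bin to the brightest it was 8.75%, 6.58%, 3.005% and 1.14%. The share at least 2-fold lower was 3.27%, 0.761%, 1.56% and 1.14% in the same order. Whether the members had fewer 2-fold differences than genes of their own bins was not tested. Set against genes of their own bin, 10 of the 35 members (28.6%) lay below the 25th percentile and 10 (28.6%) above the 75th. Below it were Atp6v0e, Atp6v1c1, Atp6v1d, Atp6v1e1, Atp6v1f, Lamp1, Lamp2, Ctsc, Psap and Map1lc3b. Above the 75th were Atp6v0c, Atp6v1b2, Atp6ap1, Ctsb, Ctsd, Hexa, Npc2, Tfeb, Atg3 and Sqstm1.

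**Figure D4:**
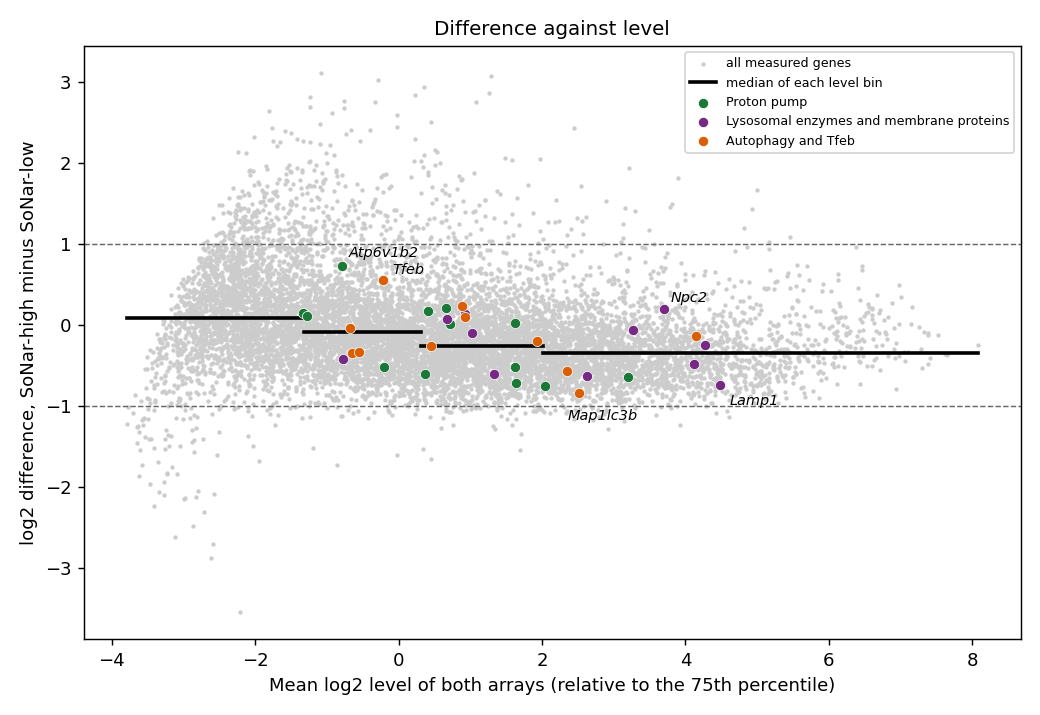
log2 difference (SoNar-high minus SoNar-low) against the mean log2 level of both arrays, relative to each array's 75th percentile, for all 10517 measured genes (grey) and the 35 members (coloured by role). Black lines are medians of the 4 level bins, which run from 0.089 in the dimmest to -0.34 in the brightest, and dashed lines mark 2-fold. All members lie between the dashed lines.

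The probes of 1 gene showed the same order. Of the members 27 rested on 1 probe and 8 on 2 probes. In 8 of those 8 genes the dimmer probe gave the higher log2 difference, by 0.13 in Atp6ap1 to 1.08 in Ctsa, with a median of 0.64. Over all 2021 genes with 2 measured probes the dimmer probe was the higher in 66.1%, with a median gap of 0.22. The sign of the 2 probes was opposite in 5 of the 8 members, Atp6v1a, Ctsa, Ctsd, Atg7 and Atg12, and in 45.4% of all such genes. A probe's brightness depends on its sequence as well as on the transcript, and the sequences of the probes were not used here. A difference from 1 probe, as for Tfeb, Atp6v1b2 and Atp6v1d, has no second probe to set it against.

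**Figure D5:**
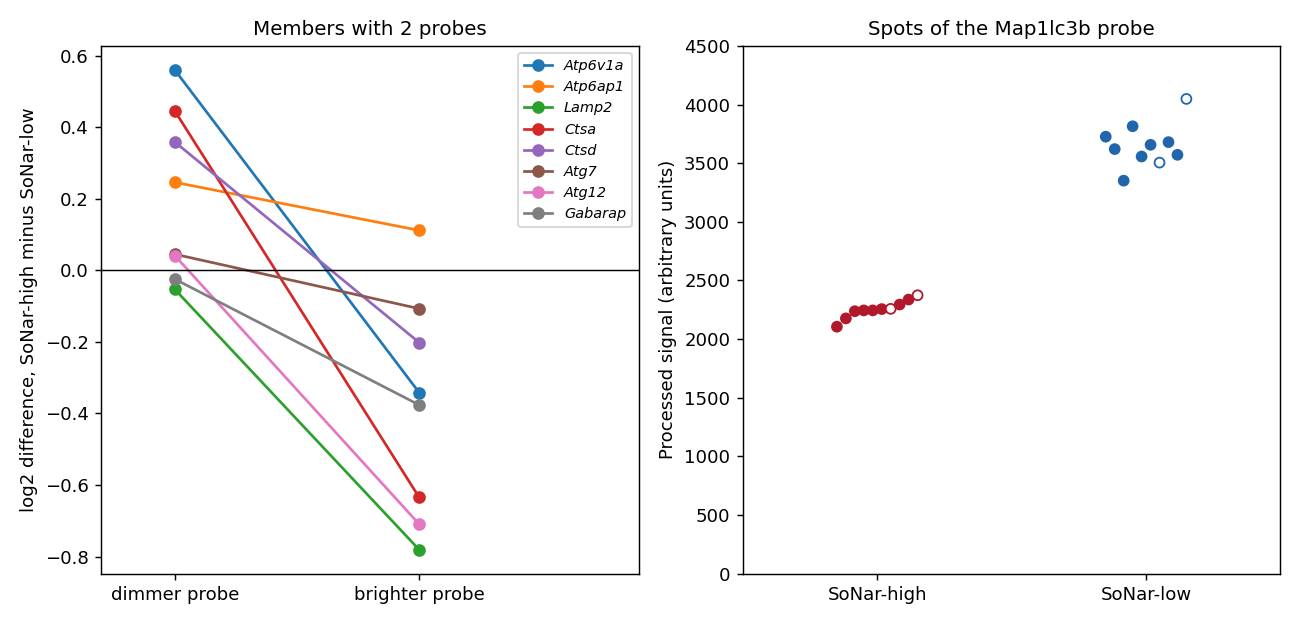
Left: SoNar-high minus SoNar-low log2 difference for the dimmer and the brighter probe of each of the 8 members with 2 probes, joined by a line. Right: processed signal (arbitrary units) of the 10 spots of the Map1lc3b probe on the SoNar-high and SoNar-low arrays, with open circles for the 2 spots left out as outliers. All 8 lines run downward, and the spots of the arrays do not overlap.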

How the data were processed

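Total RNA of the sorted cells was hybridised to 1 Agilent single-colour mouse array per group, grouped by source name. The deposited scanner files give each spot's intensity, linear, after background subtraction and spatial detrending, per the file headers. These name Feature Extraction 11.0.1.1, and the submitters' processing notes give 9.1. The authors' value table is in log2 units, deposited with a median of 5.90 in each column. It correlated with log2 signal of its own array with r = 0.995 and 0.994, the sources used here do not give its further steps, and it served as an alternative only.

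Control spots and 685 outlier spots were left out, and spots of a probe were averaged. A probe counted as detected if over 50% of its spots passed the scanner's limit above background. Of 39085 probes left, 27115 were named through RefSeq accessions. The 75th percentile scaling, the 2-fold limit and the lists are those given with the results. Members and lists were chosen with earlier results of these data known. The text names all members, pathway-list genes with a 2-fold difference and the extremes of each pathway and marker list, with further genes chosen after their values were seen. Of these extremes, 1 is not reported here. The bound for a gene detected on 1 array sets that level against, on the remaining array, its own level or the dimmest detected one, whichever is higher. The calling step was run on simulated data with planted differences larger than the 2-fold limit, as a check of the procedure. That simulation held no variation between samples, so it does not test the calls made here. Alternatives tried were quantile normalization, cyclic loess, scaling to the median or to a percentile over commonly detected spots, normexp (offset 50, on median spot signals, since no mean column was given), 4 other filters, the brightest probe, the value table and outliers kept, and, added after the data were seen, centring on the median of all measured genes. Python 3.11.15, pandas 2.3.3, numpy 2.4.6, R 4.3.3 and limma 3.58.1 were used.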

Additional observations from a re-analysis of the deposited data

How the results depend on the processing

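No paired analysis was possible because there was 1 array a group, so none could be left out either. Of the members, 0 were at least 2-fold higher in all 13 alternatives and 0 at least 2-fold lower in 12 of them, with 13 lower under median scaling. The median of the members, -0.20, was -0.81 with median scaling, 0.012 with the percentile over commonly detected spots and -0.034 after centring, each a shift of all genes alike, and -0.063 over the 8 members with at least 2 probes. Against 512 genes at least 2-fold higher there were 139 with median scaling, 262 with normexp, 806 with the percentile over commonly detected spots, 337 with the stricter filter, 2775 without a filter and 3203 with detection on 1 array enough. Against 177 lower genes there were 3306 with median scaling, 350 after quantile normalization, 300 after cyclic loess, 60 with normexp, 67 with the percentile over commonly detected spots, 1751 without a filter, 114 with 1 common limit, 430 in the authors' value table and 70 after centring. Higher genes were 74.3% of these calls, but 4.03% with median scaling, 52.4% after quantile normalization, 60.7% after cyclic loess, 92.3% with the percentile over commonly detected spots, 61.3% without a filter, 94.8% with detection on 1 array enough, 45.4% in the value table and 91.4% after centring. For normexp, quantile normalization, cyclic loess and the value table the cause was not tested. The all-gene median moved by 0.21 with the percentile over commonly detected spots, 0.18 without a filter, 0.31 with detection on 1 array enough and 0.17 after centring. Signals near the SoNar-low array's limit of 46.4 leave Npc1 with a bound only.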

Other observations

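Pump subunit isoforms known from other tissues were often detected in SoNar-high cells alone. Of the 18 other pump genes 7 were measured on both arrays and 2 passed on neither, where 10517 and 4634 of all 20618 named genes did. The other 9 passed in SoNar-high cells alone, and 0 in SoNar-low cells alone, beside 26.5% of all named genes for SoNar-high cells alone. They were Atp6v0a4, Atp6v0d2, Atp6v1b1, Atp6v1c2, Atp6v1e2, Atp6v1g2 and Atp6v1g3, which replace the widely expressed subunits in tissues such as kidney, osteoclasts, testis or brain, with Dmxl2 and Wdr7, which assist assembly. Atp6v1e2, the E subunit isoform of testis, had a signal of 170 in SoNar-high and 16.7 in SoNar-low cells and was at least 3.31-fold higher. It was the only one of the 9 whose bound reached 2-fold. Atp6v1g2, the G subunit isoform of neurons, had 95.6 in SoNar-high and 38.4 in SoNar-low cells and was at least 1.87-fold higher. For 4 of the 9, Atp6v0a4, Atp6v0d2, Atp6v1c2 and Wdr7, the level in SoNar-high cells did not reach the detection limit of the SoNar-low array, so no fold can be given. Bounds hold for the main scaling.

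Of the 114 other lysosomal, autophagy and MiT/TFE genes on the array that are not members, 11 (9.65%) passed in SoNar-high cells alone, beside 26.5% of all named genes. These shares are not alike in what was left to differ. Measured on both arrays were 34 of 37 hydrolases, 19 of 21 membrane and trafficking genes, 42 of 48 autophagy genes and 4 of 8 MiT/TFE genes. Of all 20618 named genes 10517 were. Ctsf, a cysteine cathepsin, had 90.5 in SoNar-high and 12.6 in SoNar-low cells and was at least 1.77-fold higher. Idua, the enzyme that cleaves iduronic acid from glycosaminoglycans, had probes that disagreed, with 1809 in SoNar-high and 619 in SoNar-low cells for one and 494 in SoNar-high and 491 in SoNar-low cells for the other. Slc17a5, the sialic acid exporter, had 1441 in SoNar-high and 604 in SoNar-low cells for one probe and 53.2 in SoNar-high and 66.5 in SoNar-low cells for the other.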
